A study of Mus musculus with 30 samples.

Results

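Branched-chain amino acid catabolism was examined in the left ventricle through 10 genes, selected on earlier results of these data, of 49671 genes in the table of the peptide study and 55263 genes in the table of the antibody study. The genes were *Bcat2*, *Bckdha*, *Bckdhb*, *Dbt*, *Bckdk*, *Ppm1k*, *Ivd*, *Mccc1*, *Mccc2* and *Hibch*. They were listed with their counts in all 4 groups and their fold changes in both treatment comparisons already known, so their fold changes are given as a description without a test. All 10 genes averaged 10 counts or more per heart, the limit for testing a gene, in both studies, so no listed gene is missing from the values given. The 30 hearts came from male wild-type C57BL6J mice. In the peptide study, 7 mice were given Aβ42, a recombinant human amyloid beta peptide, and 7 mice were given ScrAβ42, a peptide of scrambled sequence, by daily intraperitoneal injection for 4 weeks from about 12 weeks of age. In the antibody study, 8 mice were given 3D6, an antibody that neutralises amyloid beta, and 8 mice were given an isotype control antibody (Con), weekly by the same route from about 12 weeks of age. The sources differ on 3 points. The starting age of the peptide mice is 12 weeks in the labels and a range ending there in the methods. The labels give the peptide dose as 1 mg per day where the methods of the study give a dose in micrograms, and the series description has the antibody mice also receiving Aβ42 where the methods describe weekly antibody injections during high-fat feeding. The paper traces the antibody hearts to mice fed a high-fat diet in both groups while they were injected over 4 months. Whether these mice also received Aβ42 is stated only in the series description and is not settled here. Neither point differs between 3D6 and Con.

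Leucine, isoleucine and valine are broken down in mitochondria by a common start and separate ends. *Bcat2* encodes the mitochondrial aminotransferase that removes the amino group, and the resulting keto acids are oxidised by the branched-chain ketoacid dehydrogenase complex, built from the E1α subunit (*Bckdha*), the E1β subunit (*Bckdhb*), the E2 core (*Dbt*) and a shared E3 subunit (*Dld*). The kinase *Bckdk* phosphorylates E1α and switches the complex off, whereas the phosphatase *Ppm1k* removes the phosphate and switches it on. After the complex the routes part. *Ivd* (isovaleryl-CoA dehydrogenase) and *Mccc1* and *Mccc2* (the α and β subunits of methylcrotonyl-CoA carboxylase) act on leucine, and *Hibch* (3-hydroxyisobutyryl-CoA hydrolase) acts on valine. The heart is known as a tissue that oxidises these keto acids.

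The genes lie on 7 chromosomes, and 3 of them are on chromosome 7 of GRCm38. These are *Bckdha* (ENSMUSG00000060376) at chr7:25629946-25658981 on the minus strand, *Bcat2* (ENSMUSG00000030826) at chr7:45570153-45589711 on the plus strand and *Bckdk* (ENSMUSG00000030802) at chr7:127904082-127910221 on the plus strand. *Dbt* (ENSMUSG00000000340) is at chr3:116513070-116549981 on the plus strand and *Mccc1* (ENSMUSG00000027709) at chr3:35959312-36000678 on the minus strand. *Bckdhb* (ENSMUSG00000032263) is at chr9:83925145-84124240, *Ivd* (ENSMUSG00000027332) at chr2:118861954-118882909 and *Hibch* (ENSMUSG00000041426) at chr1:52844929-52920986, all on the plus strand. *Ppm1k* (ENSMUSG00000037826) is at chr6:57506502-57535468 and *Mccc2* (ENSMUSG00000021646) at chr13:99948530-100015639, both on the minus strand. Several overlap other annotated genes. On the opposite strand, *Bckdha* overlaps *B3gnt8* and *Mccc1* overlaps *Mccc1os*, and on the same strand *Mccc1* overlaps *Gm43080* and *Dbt* overlaps *Gm43651*. The library kit keeps strand, but the strand setting of the counting is not given in the sources used here.

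RefSeq promoter windows of GRCm38.p6, 250 bases before to 50 bases after a start site, were found by symbol for 9 of the 10 genes (all but *Dbt*). Printed here are the windows of 2 pairs of subunits of the same enzyme whose levels are compared heart by heart, namely E1α with E1β and the α with the β subunit of methylcrotonyl-CoA carboxylase. Capitals mark matches, on either strand, to 4 short motifs. These are the nuclear receptor core element AGGTCA, the E-box CACGTG, the CCAAT box, whose letters are its name, and the GC box GGGCGG. The windows read in the direction of the gene from chr7:25658712-25659011 (minus strand), chr9:83924887-83925186 (plus strand), chr3:36000629-36000928 (minus strand) and chr13:100015590-100015889 (minus strand).
Bckdha: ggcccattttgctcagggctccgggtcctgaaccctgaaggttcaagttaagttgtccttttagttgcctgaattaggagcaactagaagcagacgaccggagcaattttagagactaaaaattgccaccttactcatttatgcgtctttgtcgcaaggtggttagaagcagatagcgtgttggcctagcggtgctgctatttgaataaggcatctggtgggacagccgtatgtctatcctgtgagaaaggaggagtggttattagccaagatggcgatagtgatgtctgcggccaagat
Bckdhb: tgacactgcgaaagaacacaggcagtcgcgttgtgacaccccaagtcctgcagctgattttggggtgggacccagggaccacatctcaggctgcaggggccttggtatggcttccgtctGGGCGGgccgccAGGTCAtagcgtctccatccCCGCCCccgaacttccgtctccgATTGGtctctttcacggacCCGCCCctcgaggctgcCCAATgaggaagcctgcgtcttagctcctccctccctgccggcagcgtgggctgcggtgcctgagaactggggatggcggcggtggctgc
Mccc1: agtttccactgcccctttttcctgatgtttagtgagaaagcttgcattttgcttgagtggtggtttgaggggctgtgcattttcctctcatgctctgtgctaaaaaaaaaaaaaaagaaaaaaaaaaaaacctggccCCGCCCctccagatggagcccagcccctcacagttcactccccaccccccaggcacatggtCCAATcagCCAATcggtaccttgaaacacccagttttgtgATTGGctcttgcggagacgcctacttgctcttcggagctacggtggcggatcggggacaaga
Mccc2: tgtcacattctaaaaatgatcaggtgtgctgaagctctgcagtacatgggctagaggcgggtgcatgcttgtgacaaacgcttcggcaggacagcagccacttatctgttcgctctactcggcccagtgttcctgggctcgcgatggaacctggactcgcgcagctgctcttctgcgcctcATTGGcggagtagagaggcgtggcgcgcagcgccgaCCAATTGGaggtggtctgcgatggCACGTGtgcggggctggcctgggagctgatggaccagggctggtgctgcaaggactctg

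The *Bckdha* window held 0 matches, whereas the *Bckdhb* window printed, from the other subunit of the same enzyme, held 6, with 3 GC boxes, 2 CCAAT boxes and 1 AGGTCA. The *Mccc1* window held 3 CCAAT boxes and 1 GC box. The *Mccc2* window held 3 CCAAT boxes, of which 2 overlap on opposite strands, and the E-box 9 bases before the start site. *Bckdhb* has a second window, at chr9:83948531-83948830 on the plus strand, which held 1 CCAAT box. Over the 11 windows of the 9 genes (2 each for *Bcat2* and *Bckdhb*), CCAAT was present in 7, GGGCGG in 4, AGGTCA in 2 (*Bckdhb* and *Ppm1k*) and CACGTG in 1. Among 32851 mouse promoter windows of the same length, 37.4% held CCAAT, 35.7% GGGCGG, 16.3% AGGTCA and 7.15% CACGTG. These matches describe letters in these windows and were not tested as binding sites.

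Library totals were 4478991 to 6015767 counts for the peptide hearts and 6371811 to 8278366 counts for the antibody hearts. A listed gene had 230 to 3765 counts per heart in the former and 114 to 2392 in the latter. No 2 hearts of a group were alike within counting error (the smallest ratio of chi-square to its degrees of freedom was 3.47), and each heart came from a separate mouse. All 6 markers of ventricular cardiomyocytes were expressed in every group, with sums from 39633 to 79487 CPM in the peptide study and from 43344 to 53937 CPM in the antibody study. Markers of other cells moved with some hearts. The summed level of 5 atrial cardiomyocyte markers ranged from 12.3 to 8387 CPM (the count relative to library size, scaled by TMM factors) with Aβ42 and from 3.81 to 3652 CPM with ScrAβ42, and a score of these markers was above 0 in 5 of 7 hearts with Aβ42 and in 1 of 7 with ScrAβ42. Across the antibody hearts the sum ranged from 1.05 to 669 CPM with 3D6 and from 0.823 to 2778 CPM with Con.

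There were 3 hearts that stood apart by a low share of counts on the mitochondrial genome, named here as in the labels by group and mouse number. The hearts Abeta42_3457 and ScrAbeta42_3448 had the lowest shares of counts on the mitochondrial genome in the peptide study, 12.9% and 13.8%, against 17.3% or more in the other 12 hearts. They also had summed fibroblast markers of 1934 and 2075 CPM, where the other hearts had at most 1308 CPM, and the lowest ventricular sums, 39633 and 48516 CPM. ScrAbeta42_3448 had the highest red cell marker sum, 15889 CPM. Among the antibody hearts, the heart Con_22 had the lowest mitochondrial share, 26.0%, and the most genes detected, 18188. Its endothelial, fibroblast and red cell markers summed to 947, 784 and 2694 CPM, each the highest sum of the antibody study. Its atrial markers summed to 2.14 CPM, and its ventricular sum of 51117 CPM was among the highest. At the other end, Con_8 had the fewest genes detected of the antibody hearts, 15843, where the next had 16722. Its mitochondrial share was 37.9%, as was that of 3D6_4, the highest. For each gene the range of its fold change over fits that leave out 1 heart is given. In bulk tissue, fewer cells of a type and less RNA per cell cannot be told apart. No measure of RNA quality was used here, and its part in these hearts was not tested.

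In the comparison of Aβ42 with ScrAβ42, which asked how the peptide changes the ventricle, the 10 genes had similar mean levels in both groups. Their log2 fold changes ran from -0.08 (*Bckdha*) to 0.10 (*Ppm1k*), with 7 above 0 and 3 below, and the median was 0.01. Over all 11985 genes tested the median was 0.0016, and 50.5% of genes had a fold change above 0. None of the 10 genes was among those called by edgeR's quasi-likelihood test at an adjusted p under 0.05, where 0 genes in all (0% of those tested) were called. At an unadjusted p under 0.05, edgeR called 780 genes (6.51%) and 0 of the 10, and DESeq2 called 12 genes at an adjusted p under 0.05 (0.1%) and 0 of the 10. Since these fold changes were known when the genes were chosen, nothing is read from these counts. The split around 0 turned on single hearts and on the score of atrial markers. With that score as a covariate, all 10 genes were above 0 with a median of 0.23, and *Bckdha*, *Bckdhb* and *Hibch* changed sign. Without Abeta42_3457 all 10 genes were above 0 with a median of 0.09, and without ScrAbeta42_3448 3 were above 0 and the median was -0.03.

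In the comparison of 3D6 with Con, which asked how neutralising amyloid beta changes the ventricle, all 10 genes had a higher mean level with 3D6. The log2 fold changes ran from 0.05 (*Bckdha*) to 0.33 (*Ppm1k*) with a median of 0.10, while over all 12146 genes tested the median was -0.01 and 47.2% of genes had a fold change above 0. edgeR called 0 genes at an adjusted p under 0.05 (0%) and 444 at an unadjusted p under 0.05 (3.66%), with 0 of the 10 among either, and DESeq2 called 0 genes (0%). Without Con_8, 1 of the 10 (*Ppm1k*) and 766 of all genes tested (6.3%) had an unadjusted p under 0.05 by edgeR. The ranges of 3D6 and Con overlapped for each of the 10 genes. Without the heart Con_22, the median fell to 0.06 and *Hibch* turned to -0.04. With the mitochondrial share as a covariate, the median was 0.07, but the genes moved in opposite directions. *Ppm1k* was 0.12, *Mccc1* 0.08, *Ivd* 0.03, *Dbt* 0.02 and *Hibch* -0.05, each lower than before, while *Bckdha* and *Bcat2* were higher, at 0.12 and 0.13.

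**Figure D1:**
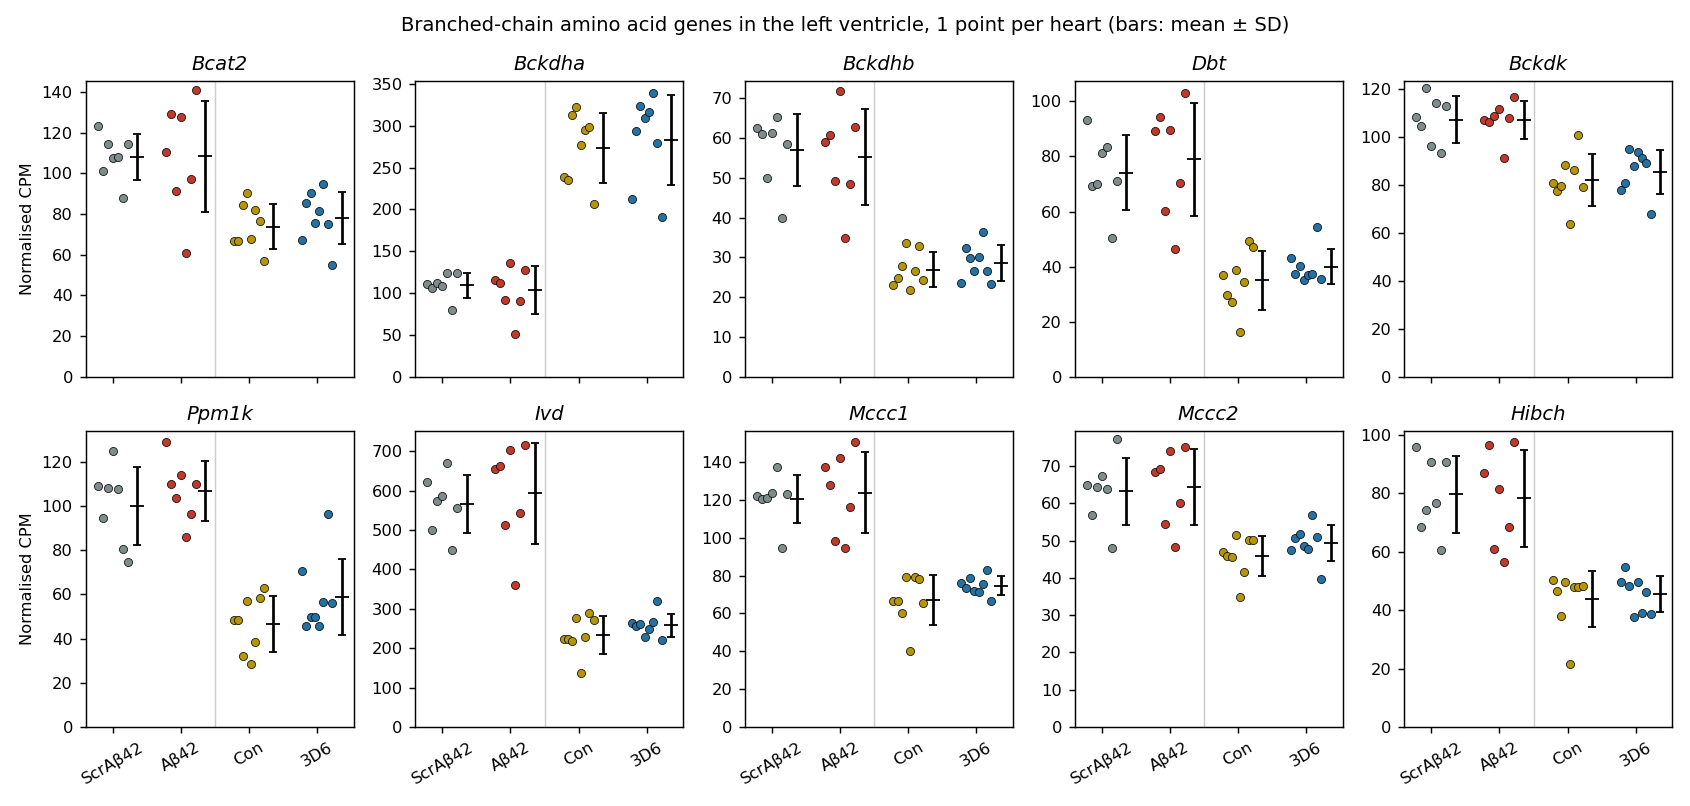
Normalised CPM of the 10 genes, 1 point per heart, in ScrAβ42 and Aβ42 (7 hearts each) and Con and 3D6 (8 hearts each), with bars for the mean ± SD beside each group and a vertical line between the studies. For every gene the points of the 2 groups within a study overlap, and *Bckdha* lies higher in the antibody study (192 to 339 CPM) than in the peptide study (51.2 to 136 CPM) while the other 9 genes have lower means there.

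*Bcat2*, the entry enzyme, had a mean of 108 ± 27.5 CPM with Aβ42 (SD, n = 7; lowest 61.1, median 110, highest 141) and 108 ± 11.3 CPM with ScrAβ42 (SD, n = 7; lowest 88.0, median 108, highest 123). The means were the same and the Aβ42 hearts were more spread, with 3 above and 1 below every ScrAβ42 heart. The log2 fold change was 0.00016 (SE 0.15), between -0.07 without Abeta42_3460 and 0.10 without Abeta42_3457. Its mean in the antibody study was 78.1 ± 12.9 CPM with 3D6 (SD, n = 8; lowest 55.2, median 78.4, highest 94.7) and 73.9 ± 11.2 CPM with Con (SD, n = 8; lowest 56.7, median 72.2, highest 90.2), a log2 fold change of 0.08 (SE 0.11). The lowest hearts were 3D6_7 with 3D6 and Con_8 with Con, and the fold change was 0.14 without the former and 0.03 without the latter. *Bcat1*, which encodes the cytosolic aminotransferase, was scarce by comparison, with at most 4.95 CPM in the peptide study and at most 1.35 CPM in the antibody study, where it did not pass the filter.

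For the dehydrogenase complex, *Bckdha* (E1α) ranged from 51.2 to 136 CPM with Aβ42 (median 112) and from 79.8 to 124 CPM with ScrAβ42 (median 111), a log2 fold change of -0.08 (SE 0.17). The lowest heart of each group was the one of low mitochondrial share, Abeta42_3457 and ScrAbeta42_3448. The fold change was 0.04 without Abeta42_3457 and -0.16 without Abeta42_3456, the extremes over single hearts. Without the 2 lowest hearts, the means were 112 ± 18.4 CPM with Aβ42 and 114 ± 7.74 CPM with ScrAβ42 (SD, n = 6 each). With 3D6 it ranged from 192 to 339 CPM (median 301) and with Con from 207 to 323 CPM (median 286), a log2 fold change of 0.05 (SE 0.13). Here Con_22 was not low, at 277 CPM. The low hearts were 3D6_7 and 3D6_12 with 3D6 (192 and 213 CPM) and Con_8 with Con (207 CPM). Single hearts moved the fold change between 0.0019 without Con_8 and 0.12 without 3D6_7.

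*Bckdhb* (E1β) ranged from 34.9 to 71.9 CPM with Aβ42 (median 59.0) and from 39.9 to 65.4 CPM with ScrAβ42 (median 61.1), a log2 fold change of -0.05 (SE 0.14). As for *Bckdha*, Abeta42_3457 and ScrAbeta42_3448 were the lowest of their groups. The fold change was 0.04 without Abeta42_3457, and -0.12 without ScrAbeta42_3448 or without Abeta42_3456. With 3D6 it ranged from 23.3 to 36.3 CPM (median 28.3) and with Con from 21.8 to 33.7 CPM (median 25.8), a log2 fold change of 0.09 (SE 0.11), with 1 heart with 3D6 above and 2 hearts with Con below all hearts of the other group. It was 0.05 without Con_22, and ranged over single hearts from 0.03 without 3D6_24 to 0.14 without Con_19.

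*Dbt* (E2) ranged from 46.4 to 103 CPM with Aβ42 (median 89.4) and from 50.4 to 93.1 CPM with ScrAβ42 (median 71.2), a log2 fold change of 0.09 (SE 0.17) that was 0.19 without Abeta42_3457 and 0.02 without ScrAbeta42_3448. In hearts given 3D6 it ranged from 35.3 to 54.2 CPM (median 37.3) and with Con from 16.3 to 49.5 CPM (median 35.8), a log2 fold change of 0.19 (SE 0.17). The hearts with 3D6 lay close together apart from 3D6_4 at 54.2 CPM, whereas 4 Con hearts were below every heart with 3D6 and 2, Con_3 and Con_8, were near the top. Without Con_22 (16.3 CPM), the Con mean rose from 35.0 ± 10.8 CPM (SD, n = 8) to 37.7 ± 8.31 CPM (SD, n = 7) and the log2 fold change fell from 0.19 to 0.09, the lowest over single hearts, whereas without Con_3 it was 0.28. With the mitochondrial share as a covariate it was 0.02.

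Of the regulators of the complex, *Bckdk*, the kinase, was the steadiest of the 10 genes in the peptide study over all hearts. It had 107 ± 7.82 CPM with Aβ42 and 107 ± 9.87 CPM with ScrAβ42 (SD, n = 7 each), coefficients of variation of 7.29% and 9.20%. Without Abeta42_3457 its Aβ42 level was 110 ± 3.85 CPM (SD, n = 6). Without ScrAbeta42_3448 its ScrAβ42 level was 110 ± 8.50 CPM (SD, n = 6). There *Bcat2*, *Bckdha* and *Mccc1* had smaller SDs (7.58, 7.74 and 6.42 CPM) at higher means. For *Bckdk*, Abeta42_3457 and ScrAbeta42_3448 were again lowest, at 91.4 and 93.5 CPM. The medians were 108 CPM in both groups, with highest hearts at 117 CPM with Aβ42 and 121 CPM with ScrAβ42. The log2 fold change was 1.9e-05 (SE 0.07), between -0.03 without ScrAbeta42_3448 and 0.04 without Abeta42_3457. The means in the antibody study were 85.6 ± 9.20 CPM with 3D6 and 82.2 ± 10.7 CPM with Con (SD, n = 8 each), a log2 fold change of 0.06 (SE 0.09). The lowest hearts were Con_22 with Con (63.6 CPM) and 3D6_7 with 3D6 (68.2 CPM). The medians were 88.5 CPM with 3D6 and 80.4 CPM with Con, and the highest heart of all was Con_3 at 101 CPM. The fold change was 0.02 without Con_22 and 0.11 without Con_3.

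*Ppm1k*, the phosphatase, ranged from 85.8 to 129 CPM with Aβ42 (median 110) and from 74.9 to 125 CPM with ScrAβ42 (median 108), a log2 fold change of 0.10 (SE 0.11) that ran from 0.04 without ScrAbeta42_3449 to 0.16 without ScrAbeta42_3445. With 3D6 the range was from 45.6 to 96.5 CPM (median 53.1) and with Con from 28.4 to 62.8 CPM (median 48.4), the largest fold change of the 10 genes at 0.33 on the log2 scale (SE 0.18). There were 2 hearts with 3D6 above every Con heart, 3D6_4 at 96.5 CPM and 3D6_12 at 70.8 CPM, and 3 Con hearts below every heart with 3D6, Con_22, Con_18 and Con_23. The log2 fold change was 0.26 without Con_22, 0.20 without 3D6_4, 0.41 without Con_8 and 0.12 with the mitochondrial share as a covariate. The mitochondrial shares of 3D6_4 and 3D6_12 were 37.9% and 35.3%, and those of Con_22, Con_18 and Con_23 were 26.0%, 28.8% and 30.4%. Con_8, also at 37.9%, had 62.8 CPM of *Ppm1k*, and Con_15, also at 30.4%, had 48.3 CPM. The part of these shares in the level of *Ppm1k* was not tested.

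**Figure D2:**
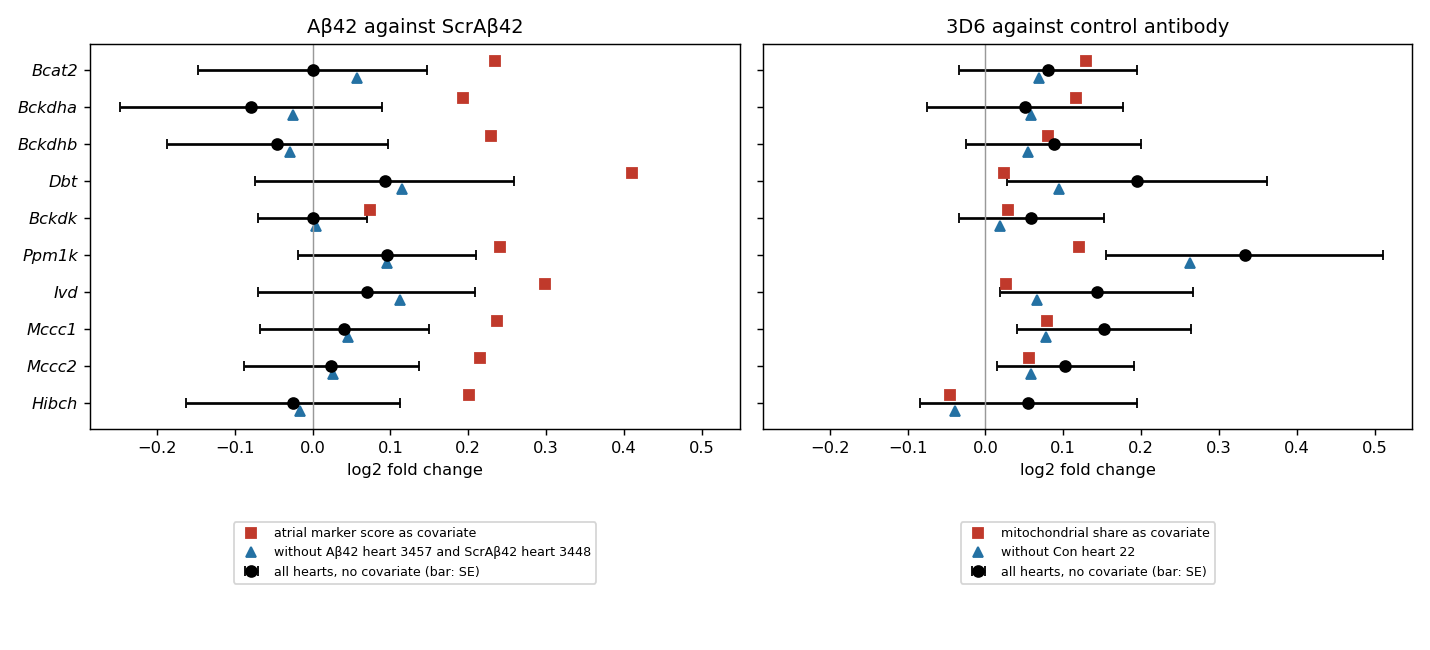
Log2 fold change of each gene (black points, bars are the SE) for Aβ42 against ScrAβ42 and for 3D6 against Con, with the values under 2 other fits in each comparison. In the peptide comparison the points lie around 0 and the atrial score moves all 10 to between 0.07 and 0.41, while in the antibody comparison all 10 black points are above 0 and *Ppm1k* moves from 0.33 to 0.12 with the mitochondrial share as a covariate.

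Among the genes of leucine breakdown, *Ivd* ranged from 361 to 716 CPM with Aβ42 (median 654) and from 449 to 671 CPM with ScrAβ42 (median 573), a log2 fold change of 0.07 (SE 0.14). It was 0.16 without Abeta42_3457, and 0.02 without ScrAbeta42_3448 or without Abeta42_3460. In hearts given 3D6 it ranged from 221 to 319 CPM (median 259) and with Con from 137 to 289 CPM (median 226), a log2 fold change of 0.14 (SE 0.12), and of the hearts with 3D6, 7 of 8 were above the Con median. Without Con_22, the lowest Con heart, the Con mean rose from 234 ± 48.1 CPM (SD, n = 8) to 247 ± 30.3 CPM (SD, n = 7) and the log2 fold change was 0.07, while without Con_3 it was 0.19. With the mitochondrial share as a covariate it was 0.03.

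*Mccc1* ranged from 94.7 to 151 CPM with Aβ42 (median 128) and from 94.6 to 138 CPM with ScrAβ42 (median 122), a log2 fold change of 0.04 (SE 0.11), with -0.01 without Abeta42_3460 and 0.10 without Abeta42_3457. With 3D6 the range was from 66.3 to 82.9 CPM (median 74.5) and with Con from 40.2 to 79.4 CPM (median 66.7), a log2 fold change of 0.15 (SE 0.11). Among the 10 genes the 3D6 hearts were the tightest group, with a coefficient of variation of 6.74% against 19.6% in Con. Without Con_22, the Con level went from 67.0 ± 13.1 CPM (SD, n = 8) to 70.9 ± 7.97 CPM (SD, n = 7). The log2 fold change was 0.08 without Con_22 and 0.20 without Con_23. *Mccc2* ranged from 48.3 to 75.2 CPM with Aβ42 (median 68.3) and from 47.9 to 77.2 CPM with ScrAβ42 (median 64.2), a log2 fold change of 0.02 (SE 0.11), with -0.04 without ScrAbeta42_3448 and 0.08 without Abeta42_3457. The ScrAβ42 hearts spanned those with Aβ42 at both ends. With 3D6 it lay between 39.7 and 56.7 CPM (median 49.6) and with Con between 34.8 and 51.6 CPM (median 46.4), a log2 fold change of 0.10 (SE 0.09) that became 0.06 without Con_22 and 0.14 without 3D6_7.

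*Hibch*, from valine breakdown, ranged from 56.4 to 97.5 CPM with Aβ42 (median 81.6) and from 60.6 to 96.0 CPM with ScrAβ42 (median 76.8), a log2 fold change of -0.03 (SE 0.14) that was -0.09 without Abeta42_3460 and 0.04 without Abeta42_3457. With 3D6 it ranged from 37.7 to 54.7 CPM (median 47.3) and with Con from 21.7 to 50.4 CPM (median 48.0). The medians and the means were in opposite order, since Con_22 lay far below the other 7 Con hearts, of which the lowest was 38.0 CPM. The log2 fold change was 0.06 (SE 0.14) with this heart, -0.04 without it and 0.10 without 3D6_20.

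Atrial markers were higher in more Aβ42 than ScrAβ42 hearts, and the fold changes of the 10 genes changed once these markers entered the fit. With the atrial score as a covariate, all 10 genes were higher with Aβ42, from 0.07 (*Bckdk*) to 0.41 (*Dbt*) on the log2 scale, with a median of 0.23 where the fit without it gave 0.01. The median of all genes was -0.0035 in that fit. By edgeR, 0 genes had an adjusted p under 0.05 in it, and 5 of the 10 genes had an unadjusted p under 0.05, as did 881 (7.35%) of all genes tested, and nothing is read from these counts either. Of the 5 Aβ42 hearts with an atrial score above 0, 3 had a mean log2 level of the list below the study mean, Abeta42_3457 at -0.55, Abeta42_3455 at -0.18 and Abeta42_3458 at -0.10, and 2 had one above it, Abeta42_3451 at 0.16 and Abeta42_3460 at 0.28, the highest of the study. ScrAbeta42_3448, the ScrAβ42 heart with a score above 0, was at -0.37. The adipocyte markers summed to 631 CPM in Abeta42_3457, 173 CPM in Abeta42_3451 and 68.0 CPM in Abeta42_3455. Of the ScrAβ42 hearts, ScrAbeta42_3448 had 83.6 CPM and ScrAbeta42_3442 had 77.9 CPM. The medians were 6.55 CPM with Aβ42 and 0.871 CPM with ScrAβ42. The part of either kind of cell in these levels was not tested. Without Abeta42_3457 and ScrAbeta42_3448 the log2 fold changes ran from -0.03 to 0.11 with a median of 0.04.

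**Figure D3:**
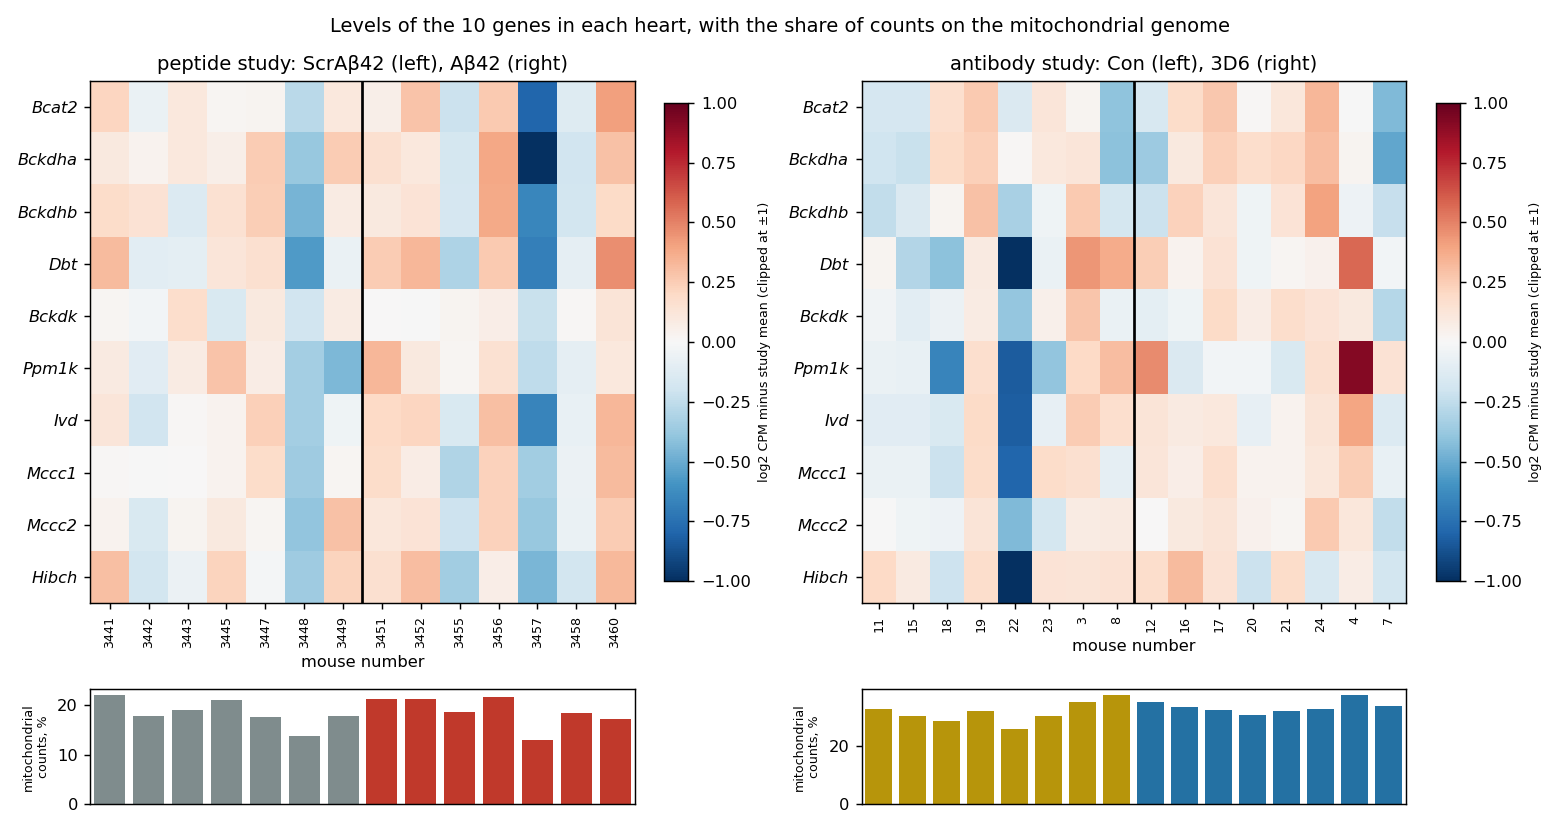
Log2 CPM of each gene in each heart minus its mean over the hearts of the study (colour, clipped at ±1), by mouse number, with ScrAβ42 and Con on the left of each panel and Aβ42 and 3D6 on the right; bars show the percentage of counts on the mitochondrial genome. Abeta42_3457 and ScrAbeta42_3448 are low for nearly all 10 genes and have the shortest bars of the peptide study, and Con_22 is low for most genes but not for *Bckdha*, with the shortest bar of the antibody study.

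Compared per kilobase of transcript, *Ivd* was the most abundant of the 10 genes in the peptide study, with 175 ± 37.8 CPM per kb with Aβ42 and 167 ± 21.7 CPM per kb with ScrAβ42 (SD, n = 7 each), and its range did not overlap that of the next gene, *Bcat2*. The ranges of all later neighbours in the order overlapped, from *Bcat2* through *Bckdha*, *Bckdk*, *Mccc1*, *Hibch*, *Bckdhb*, *Mccc2* and *Dbt* to *Ppm1k*, which was lowest at 20.9 ± 2.67 and 19.5 ± 3.45 CPM per kb. *Bckdha* was first in the antibody study, with 149 ± 28.2 CPM per kb with 3D6 and 144 ± 22.0 CPM per kb with Con (SD, n = 8 each), with no overlap with the second gene, *Ivd*, at 76.1 ± 8.76 and 68.9 ± 14.2 CPM per kb. *Dbt* and *Ppm1k* were the lowest in all 4 groups. Between *Bckdhb* and *Dbt* there was a further gap without overlap in both 3D6 and Con.

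The different place of *Bckdha* could not be tested, because the studies were run and tabulated separately. Per kilobase, *Bckdha* was 1.31 ± 0.128 times *Bckdhb* with Aβ42 and 1.37 ± 0.136 times with ScrAβ42 (SD, n = 7 each), but 7.03 ± 0.812 times with 3D6 and 7.28 ± 0.967 times with Con (SD, n = 8 each). *Bckdhb* itself stood in a similar ratio to *Dbt* in both studies, 1.73 ± 0.194 with Aβ42, 1.89 ± 0.167 with ScrAβ42, 1.78 ± 0.392 with 3D6 and 2.03 ± 0.633 with Con. The table of the peptide study holds sums per gene and that of the antibody study estimates per transcript. The share of counts on the mitochondrial genome was 12.9% to 22.2% in the peptide hearts and 26.0% to 37.9% in the antibody hearts. Treatment, diet, age at collection, this share and tabulation cannot be told apart.

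Subunits of the same enzyme, and the kinase and phosphatase of the complex, were then compared heart by heart, as deviations of log2 CPM from the group means, in 5 pairs per study. The genes were chosen with these levels known, so the correlations are a description without a test. The points of each pair share the library, its depth and its scaling. For *Bckdha* and *Bckdhb*, Pearson's r was 0.92 and Spearman's rho 0.81 over 14 hearts of the peptide study, and r was 0.80 without the 2 hearts farthest from the median of *Bckdha*. Without Abeta42_3457 and ScrAbeta42_3448, r was 0.81 and rho 0.64. Over 16 hearts of the antibody study, r was 0.75 and rho 0.83, with r = 0.66 without the 2 farthest hearts and 0.82 without Con_22. In this pair high and low hearts were largely the same for both genes, in either study.

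*Dbt* followed the E1 subunits in the peptide study, where r was 0.88 with *Bckdha* (rho = 0.81) and 0.91 with *Bckdhb* (rho = 0.89). Without the 2 farthest hearts, r was 0.68 and 0.76, and without Abeta42_3457 and ScrAbeta42_3448 it was 0.69 and 0.76. For the antibody hearts, r was -0.12 between *Bckdha* and *Dbt* (rho = -0.07) and -0.20 without the 2 farthest hearts. With CPM of the total count it was -0.39 (rho = -0.56). Between *Bckdhb* and *Dbt*, r was 0.30 (rho = 0.23) for the antibody hearts and 0.34 without the 2 farthest hearts, but 0.05 without Con_22 and 0.0015 with CPM of the total count. Whether these correlations differ between the studies was not tested.

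For *Mccc1* and *Mccc2*, r was 0.87 in the peptide study (rho = 0.82), and 0.73 both without the 2 farthest hearts and without Abeta42_3457 and ScrAbeta42_3448. For the antibody hearts r was 0.71 (rho = 0.50) and 0.67 without the 2 farthest hearts, but 0.37 without Con_22 alone. For *Bckdk* and *Ppm1k*, the opposing regulators, r was 0.27 in the peptide study (rho = 0.23) and -0.30 without Abeta42_3457 and ScrAbeta42_3448. For the antibody hearts it was 0.32 (rho = 0.18), 0.06 without Con_22 and 0.0033 with CPM of the total count. Over all 45 pairs of the 10 genes, r was above 0.5 in 42 pairs in the peptide study and in 29 in the antibody study, where 5 were below 0, the lowest being *Bckdha* with *Ppm1k* at -0.34. Over all pairs of genes tested, 11.3% had an r above 0.5 for the peptide hearts and 13.2% for the antibody hearts. The counts over the 45 pairs include Abeta42_3457, ScrAbeta42_3448 and Con_22 and were not taken without them. These pairs share the same 10 genes and hearts, so they are not independent.

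**Figure D4:**
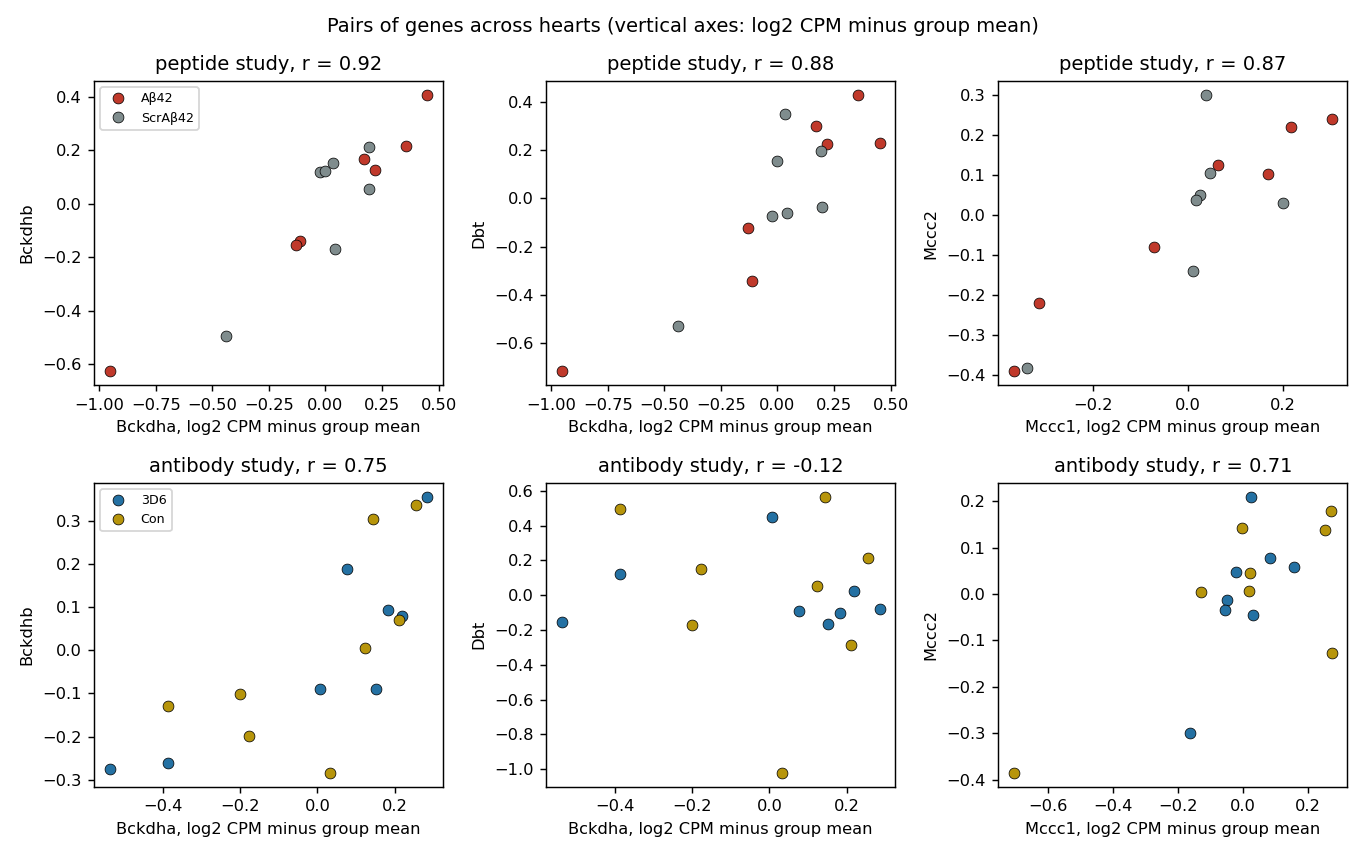
Log2 CPM of 2 genes in each heart, each as the deviation from its group mean, for *Bckdha* with *Bckdhb*, *Bckdha* with *Dbt* and *Mccc1* with *Mccc2*, in the peptide study (upper row, 14 hearts) and the antibody study (lower row, 16 hearts). *Bckdha* and *Bckdhb* lie along a rising line in both studies (r = 0.92 and 0.75), whereas *Bckdha* and *Dbt* do so in the peptide study (r = 0.88) and are scattered in the antibody study (r = -0.12).

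The counts of the antibody study are given per transcript, which shows where the counts of each gene fell. *Bckdha* had 100% of its counts on *Bckdha-201* in all 16 hearts, and *Dbt-201*, *Ppm1k-201*, *Ivd-201* and *Hibch-201* held at least 95.5% of their gene's counts in every heart. *Bckdhb* switched between nearly identical models, *Bckdhb-201* (1472 bases) with counts in 11 hearts and *Bckdhb-206* (1477 bases) with counts in 5, so only its sum was used. *Bckdk* was divided between *Bckdk-202* (50.6% of all its counts) and *Bckdk-201* (43.1%), with medians for *Bckdk-202* of 52.8% with 3D6 and 49.0% with Con and ranges of 48.7% to 59.4% and 33.8% to 55.3%. *Mccc1* had 76.6% of its counts on *Mccc1-201*, 11.9% on the retained-intron transcript *Mccc1-203* and 8.05% on *Mccc1-205*, a transcript annotated for nonsense-mediated decay.

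The heart Con_22 also differed in this respect. In it *Mccc2-201* held 37.9% of the counts of *Mccc2*, against 77.2% to 99.6% in the other 15 hearts, and 35.6% fell on the shorter *Mccc2-205* and 22.5% on the retained-intron transcript *Mccc2-202*. *Bcat2-201* held 64.6% (77.9% to 99.4% in the other hearts), with 18.5% on *Bcat2-204*, which is annotated for nonsense-mediated decay, and *Mccc1-201* held 56.8% (72.8% to 81.6%). *Bckdk-205*, a transcript of 724 bases, took 18.8% of *Bckdk*, where it took at most 4.42% in any other heart. Of *Bckdhb*, 42.3% fell on the short *Bckdhb-203*. With protein-coding transcripts only and Con_22 kept, all 10 genes were higher with 3D6, and the median log2 fold change was 0.12. This fit dropped 42.3% of the counts of *Bckdhb* and 43.2% of those of *Mccc1* in Con_22. In any other heart it dropped at most 16.5% and 27.2%. It therefore lowers Con_22 more than the others and cannot show what this heart contributes.

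**Figure D5:**
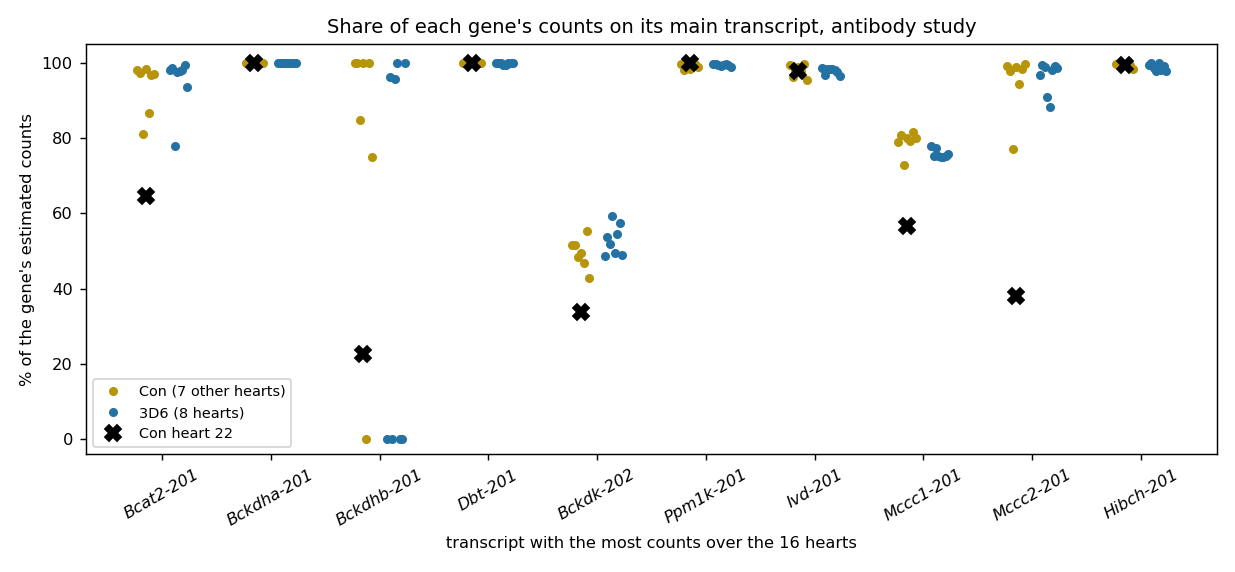
Percentage of each gene's estimated counts on the transcript that had the most counts over the 16 hearts of the antibody study, 1 point per heart, with the heart Con_22 as a black cross. Con_22 lies below all other hearts for *Bcat2*, *Bckdk*, *Mccc1* and *Mccc2*, and *Bckdhb-201* lies at 0% in hearts whose counts were assigned to *Bckdhb-206*.

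The rest of the route was described through 18 other genes of branched-chain amino acid breakdown, among them the shared E3 subunit *Dld* and the propionyl-CoA carboxylase subunits *Pcca* and *Pccb*. In the peptide study all 18 were tested, 8 had a log2 fold change above 0 and 10 below, and the median was -0.0026. In the other study 17 were tested, 14 were above 0 and 3 below, with a median of 0.12, where 47.2% of all genes were above 0. edgeR called 0 of them in either direction in either study at an adjusted p under 0.05 (0% of all genes), and 0 at an unadjusted p under 0.05 (6.51% and 3.66% of all genes), and DESeq2 called 0 (0.1% and 0%). The furthest from 0 in the peptide study were *Bcat1* at 0.33 (SE 0.42), *Mmaa*, a cobalamin-handling gene, at -0.18 (SE 0.13) and *Mut*, the methylmalonyl-CoA mutase, at 0.11 (SE 0.09). Those furthest in the antibody study were *Mut* at 0.27 (SE 0.21), *Aldh6a1*, the methylmalonate semialdehyde dehydrogenase of valine breakdown, at 0.20 (SE 0.20) and *Acat1*, the mitochondrial acetyl-CoA acetyltransferase, at 0.17 (SE 0.11). Con_22 was the lowest Con heart for most of the 17 genes tested, so the 14 above 0 are not independent of this heart. The split around 0 without it is not given. *Mut* was at 17.4 CPM in Con_22 and at 38.0 CPM or more in the other Con hearts, and *Dld* was at 101 CPM there and at 205 CPM or more in the others.

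Carriers and a regulator completed the set. *Slc25a44*, a mitochondrial carrier of branched-chain amino acids, had a mean of 26.9 ± 2.74 CPM with Aβ42 and 24.9 ± 1.87 CPM with ScrAβ42 (SD, n = 7 each), a log2 fold change of 0.12 (SE 0.08), and 14.6 ± 1.96 CPM with 3D6 and 12.8 ± 2.84 CPM with Con (SD, n = 8 each), a log2 fold change of 0.18 (SE 0.13). *Slc7a5* and *Slc3a2*, the light and heavy chain of a plasma membrane amino acid transporter, had log2 fold changes of 0.18 (SE 0.23) and 0.08 (SE 0.08) with Aβ42 and of -0.20 (SE 0.21) and -0.13 (SE 0.07) with 3D6. *Slc3a2* ranged from 24.5 to 28.4 CPM with 3D6 and from 27.1 to 32.6 CPM with Con. *Klf15*, a transcription factor known to regulate branched-chain amino acid catabolism in the heart, had log2 fold changes of 0.14 (SE 0.08) with Aβ42 and 0.23 (SE 0.18) with 3D6, and its lowest Con heart was Con_22 at 12.5 CPM. None of the 4 was called by edgeR in either study, at an adjusted p (0% of all genes) or an unadjusted p under 0.05 (6.51% and 3.66% of all genes), nor by DESeq2, and with 4 genes little can be read from this.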

How the data were processed

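Per the labels and the methods of the study, RNA of the left ventricle was sequenced from stranded total RNA libraries, quality-trimmed and quantified with Salmon against GENCODE mouse transcripts of GRCm38. The authors deposited whole-number counts per gene for the peptide study and estimated counts per transcript for the antibody study, without normalization. Here transcripts were summed to genes through GENCODE vM21, of the same build, and rounded. Of the transcripts, 99.2% were in this annotation, and the rest, 0.381% of the counts, were left out. The tables hold 1 further count column, for a mouse without labels, which was left out. Each study was fitted on all genes averaging 10 counts or more per heart in edgeR 4.0.16 (R 4.3.3; TMM, quasi-likelihood test, two-sided, Benjamini-Hochberg adjustment), and log2 CPM used a prior count of 2. DESeq2 1.42.0, RLE factors, no filter, covariates and leaving out each heart were alternatives. Leaving out Abeta42_3457 and ScrAbeta42_3448 together, the correlations without these or Con_22, the shares over all gene pairs and over all sets of hearts, and the count of genes called with protein-coding transcripts only were chosen after seeing the data. The code was tested on simulated data. The 10 genes and the other lists were chosen with earlier results of these data known. All 10 genes, the carriers and *Klf15* are named, and of the other pathway genes the 3 furthest from 0 per study, and *Dld*, *Pcca* and *Pccb* for their role. Lengths are harmonic means over transcripts weighted by their counts in the antibody study. The permutation tests planned for 5 pairs of genes are not reported, since the genes were chosen with these levels known. Each heart is a separate mouse.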

Additional observations from a re-analysis of the deposited data

Results flagged for a closer look

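A single heart lay far from the rest of its group in 7 of the 40 sets formed by the 10 genes and 4 groups, judged by Dixon's ratio at the 95% level, which chance exceeds in about 1 of 20 sets. Over all genes tested and the 4 groups, 9.65% of sets had such a heart, and the 7 sets come from 4 hearts, so they are not independent. In the peptide study, *Bckdha* was 79.8 CPM and *Mccc1* was 94.6 CPM in the heart ScrAbeta42_3448, and *Bckdk* was 91.4 CPM in the heart Abeta42_3457, each the lowest of its group. In the antibody study, *Dbt* was 54.2 CPM and *Ivd* was 319 CPM in the heart 3D6_4, each the highest of its group, and *Ivd* was 137 CPM and *Hibch* was 21.7 CPM in the heart Con_22, each the lowest. Abeta42_3457, ScrAbeta42_3448 and Con_22 had the lowest mitochondrial shares of their studies, and 3D6_4 had the highest, 37.9%. The part of these shares in the levels was not tested.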

How the results depend on the processing

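No paired analysis was possible because the groups of a study share no mouse numbers. The number of genes called in the peptide study was 0 by edgeR, 12 with DESeq2 and 0 to 3 when each heart was left out (3 without the heart Abeta42_3452 and 1 without the heart ScrAbeta42_3448), and the cause was not tested. In the antibody study it was 0 in every fit run. The median log2 fold change of the 10 genes ranged from -0.03 to 0.09 in the peptide study when each heart was left out, and from 0.06 to 0.14 in the antibody study, the lowest without the heart Con_22 and the highest without the heart 3D6_7. In the peptide study *Bcat2* and *Bckdk*, whose fold changes were near 0, changed sign with DESeq2, with RLE factors and with the mitochondrial share, and leaving out 1 heart turned at most 4 of the 10. In the antibody study all 10 stayed above 0 in every fit except those without Con_22 and with the mitochondrial share, where *Hibch* did not. With the atrial score in the fit, *Dbt* moved from 0.09 to 0.41 and *Bckdhb* from -0.05 to 0.23 in the peptide study. Among the correlations, r of *Bckdk* with *Ppm1k* in the peptide study turned to -0.15 with CPM of the total count and to -0.30 without Abeta42_3457 and ScrAbeta42_3448. That of *Bckdha* with *Dbt* in the peptide study was 0.69 without these hearts, and that of *Mccc1* with *Mccc2* in the antibody study was 0.55 with CPM of the total count and 0.37 without Con_22. In the antibody study, CPM of the total count took *Bckdhb* with *Dbt* and *Bckdk* with *Ppm1k* to near 0 (0.0015 and 0.0033) and their rho to -0.26 and -0.10. At 7 or 8 hearts per group, differences within the SE given are below what these data resolve, and a difference larger than its SE is not thereby resolved. With all hearts and no covariate, 0 of the 10 genes had an unadjusted p under 0.05 by edgeR in either comparison.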
